A study of Mus musculus with 4 samples.

Results

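Platelet-derived growth factor (PDGF) receptors, the stem cell factor receptor Kit, the related receptor Csf1r and the ligands of the PDGF receptors and of Kit were followed across all 4 arrays of a comparison of sorted mouse mesoderm. The members were the 8 genes Pdgfra, Pdgfrb, Kit, Csf1r, Pdgfa, Pdgfb, Pdgfc and Kitl, taken by symbol from the 18193 genes that the arrays measured. They were read by 20 probe sets with a single gene symbol, and each gene was represented by the probe set with the highest mean over the arrays. The cells came from TT2 embryonic stem cells in which 1 allele of Etv2 carries a knocked-in Venus reporter. Mesoderm was made from them by culture on OP9, a stromal line of mouse bone marrow. The sample labels give day 5, and the design text gives 4 to 5 days. All cells were sorted as positive for Flk-1, a receptor for VEGF that is the product of Kdr. They were then divided by the reporter into Etv2-Venus negative cells and Etv2-Venus positive cells. Total RNA of each population was read on 2 arrays, numbered 1 and 2. Both populations thus carry the same reporter allele and come from 1 cell line. Whether the arrays of a population stem from separate cultures is not in the labels, so p-values reflect the spread between 2 arrays, and this spread may be technical alone.

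Pdgfra, Pdgfrb, Kit and Csf1r are receptor tyrosine kinases of the same class, which dimerise when a ligand binds and signal through the Ras, phosphoinositide 3-kinase and STAT pathways. PDGF-A and PDGF-C act mainly through the alpha receptor and PDGF-B through both PDGF receptors, while Kit ligand (stem cell factor, Kitl) binds Kit and macrophage colony-stimulating factor binds Csf1r. In embryos Pdgfra is known from mesoderm that gives rise to paraxial, cardiac and mesenchymal tissue, Pdgfrb from pericytes and smooth muscle, Kit from blood and endothelial progenitors, and Csf1r from macrophages.

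Receptors and ligands differed between the populations in both directions. In the Etv2-Venus positive cells Pdgfra, its ligand Pdgfa and Kitl were lower on both arrays than on either array of the negative cells, and Kit and Pdgfb were higher on both. Pdgfrb, Csf1r and Pdgfc had arrays that overlapped between the populations. All values are log2 expression values, and differences are Etv2-Venus positive minus negative with the standard error (SE) of the limma fit. None of the 8 genes passed a Benjamini-Hochberg adjusted p of 0.05 in limma, and neither did any of the 18193 genes (0% called). At an unadjusted limma p under 0.05 there were 2 of 8 members in the higher direction, where the share over all genes was 7.07%, and 3 of 8 in the lower direction, where it was 4.64%. Of all genes, 22.4% had both positive arrays above both negative arrays and 17% had them below. The members were chosen with earlier results of these data known, so these counts describe them and are not a test. An exact two-sided permutation test of 2 arrays against 2 cannot give a p below 0.333.

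Etv2 and Kdr are the genes of the sort. Etv2 averaged 11.95 ± 0.12 without and 12.52 ± 0.17 with Venus (SD, n = 2 arrays each), and Kdr stood between 12.51 and 12.81 on the 4 arrays. The difference of Etv2 was 0.57 (SE 0.13; limma adjusted p = 0.185). Array medians lay between 5.46 and 5.52, so the Etv2 signal was far above them in the Venus negative cells too. The 3' minus 5' signal of the control gene Tfrc, a sign of RNA quality, was 1.46 and 0.85 on the negative and 1.91 and 1.21 on the positive arrays, so it was higher on the arrays numbered 1 in both populations and higher in the positive cells at each array number. That of a second control, Pcx, was 1.06 and 0.85 against 0.92 and 0.58, also higher on the arrays numbered 1 but lower in the positive cells. The part of RNA quality in the results was not tested.

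Pdgfra, the alpha receptor, measured 10.11 and 9.41 on the negative and 8.55 and 7.67 on the positive arrays. The highest positive array lay 0.86 below the lowest negative array, and within each population the array numbered 1 was higher, by 0.70 and 0.87. The difference was -1.65 (SE 0.38, 95% interval -2.63 to -0.66), that is 3.13-fold lower in the positive cells (limma adjusted p = 0.195 over all genes; unadjusted p = 0.00827). By size it ranked 9 among the 18193 genes and by moderated t 771, since its arrays also differed within the populations. In bulk RNA of sorted cells, fewer cells that carry a transcript and less transcript per cell cannot be told apart. The other probe sets of Pdgfra were dimmer and pointed the same way. One measured 7.56 and 7.28 against 6.34 and 6.29, a difference of -1.11 (SE 0.13), with array pairs closer together than on the brighter probe set. The other measured 6.38 and 5.74 against 5.23 and 4.90, a difference of -0.99 (SE 0.26).

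Pdgfrb, the beta receptor, measured 8.91 and 8.22 on the negative and 8.43 and 7.68 on the positive arrays. The populations overlapped, as the positive array numbered 1 exceeded the negative array numbered 2. The difference was -0.51 (SE 0.34, 95% interval -1.41 to 0.39; limma adjusted p = 0.677). It was smaller than the distance between the arrays numbered 1 and 2, 0.68 without and 0.76 with Venus. Each array moved it: it was -0.17 without the negative array numbered 1 and -0.13 without the positive array numbered 2, but -0.85 without the negative array numbered 2 and -0.89 without the positive array numbered 1. Its second probe set gave -0.25 (SE 0.24), also with overlap.

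Kit, the receptor of stem cell factor, measured 9.74 and 9.64 on the negative and 10.31 and 10.39 on the positive arrays. Arrays of one population lay within 0.10 of each other, and the lowest positive array stood 0.57 above the highest negative array. The difference was 0.66 (SE 0.10, 95% interval 0.41 to 0.91), 1.58-fold higher in the positive cells (limma adjusted p = 0.0985; unadjusted p = 0.00125). Kit ranked 169 by moderated t among the 9618 genes with a difference above 0. Its other probe set was dimmer, at 5.17 and 5.41 against 5.70 and 5.96, with a difference of 0.54 (SE 0.15).

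Csf1r, the macrophage colony-stimulating factor receptor, measured 5.97 and 5.71 on the negative and 5.88 and 5.74 on the positive arrays, close to the array medians. The populations overlapped, and the difference was -0.03 (SE 0.13, 95% interval -0.37 to 0.30; limma adjusted p = 0.972). Its 3 probe sets gave differences between -0.03 and 0.03. The sign of the kept probe set turned after quantile normalization run again and after centring arrays on their medians, so no direction is given. Macrophage markers beside it were mostly dim. Of 12 measured markers 8 were below the array median on every array, among them Adgre1, Itgam and Cx3cr1. Of the 12, 5 had arrays apart in the higher and 0 in the lower direction, against 22.4% and 17% of all genes. Mrc1, the mannose receptor, measured 7.26 and 7.41 against 8.23 and 7.97, a difference of 0.76 (SE 0.13). Spi1, a factor of myeloid cells, was at 0.26 (SE 0.09), and Cd68, a lysosomal protein, at -0.01 (SE 0.18). The mean level of the list was 4.83 and 4.75 on the negative and 4.94 and 4.89 on the positive arrays.

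**Figure D1:**
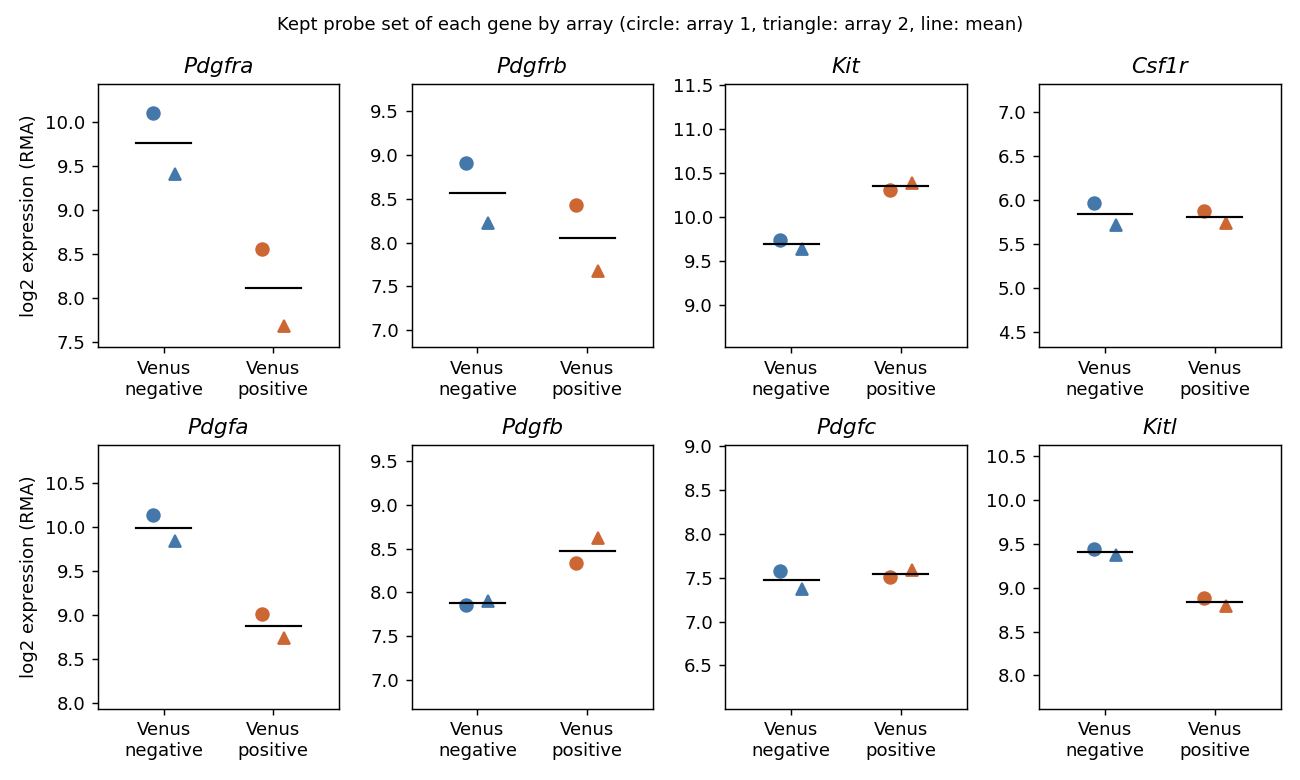
Log2 expression of the kept probe set of each of the 8 genes by population, with circles for arrays numbered 1, triangles for arrays numbered 2 and lines for the mean of 2 arrays. Every panel spans the same number of log2 units; Pdgfra, Pdgfa, Kitl, Kit and Pdgfb have populations that do not overlap, and Pdgfrb, Csf1r and Pdgfc overlap.

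Pdgfa encodes the PDGF-A chain, a ligand of the alpha receptor, and measured 10.14 and 9.84 on the negative and 9.01 and 8.74 on the positive arrays. Every positive array lay at least 0.83 below the negative arrays. The difference was -1.11 (SE 0.16, 95% interval -1.53 to -0.70), 2.17-fold lower in the positive cells (limma adjusted p = 0.0962; unadjusted p = 0.00110). Pdgfa ranked 54 by moderated t among the 8545 genes with a difference below 0. The second probe set measured 8.89 and 8.62 against 7.88 and 7.89, a difference of -0.86 (SE 0.13). Receptor and ligand of this pair, Pdgfra and Pdgfa, were the 2 members that were at least 2-fold lower, where the share over all genes was 0.423%.

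Pdgfb encodes the PDGF-B chain, which endothelial cells are known to release to pericytes. It measured 7.86 and 7.90 on the negative and 8.33 and 8.62 on the positive arrays, so both positive arrays were higher, by 0.43 or more. The difference was 0.60 (SE 0.13, 95% interval 0.26 to 0.93), 1.51-fold higher (limma adjusted p = 0.173; unadjusted p = 0.00644). Its second probe set, at 5.34 and 5.48 against 5.40 and 5.82, had overlapping arrays and a difference of 0.21 (SE 0.18). Pdgfc, which encodes a ligand of the alpha receptor that is released in a latent form, measured 7.58 and 7.37 against 7.50 and 7.58. Its arrays overlapped, with a difference of 0.07 (SE 0.11, 95% interval -0.22 to 0.36; limma adjusted p = 0.896), and its second probe set gave 0.13 (SE 0.14). The 3 PDGF chains thus had differences of -1.11, 0.60 and 0.07.

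Kitl, the ligand of Kit, measured 9.44 and 9.37 on the negative and 8.89 and 8.79 on the positive arrays. Both positive arrays were lower, by at least 0.48, and arrays of one population lay within 0.10 of each other. The difference was -0.56 (SE 0.09, 95% interval -0.81 to -0.32), 1.48-fold lower (limma adjusted p = 0.122; unadjusted p = 0.00228). Kitl and Kit therefore stood on opposite sides of 0, though neither passed an adjusted p of 0.05 in limma. The 95% intervals given here are those of single genes and are not adjusted for the number of genes tested. The 3 other probe sets of Kitl gave -0.60 (SE 0.25), -0.31 (SE 0.29) and -0.45 (SE 0.28), and only the first of these had arrays apart. Over all 8 genes, 11 of the 12 probe sets that were not kept had the sign of the kept probe set. The exception was a probe set of Csf1r.

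**Figure D2:**
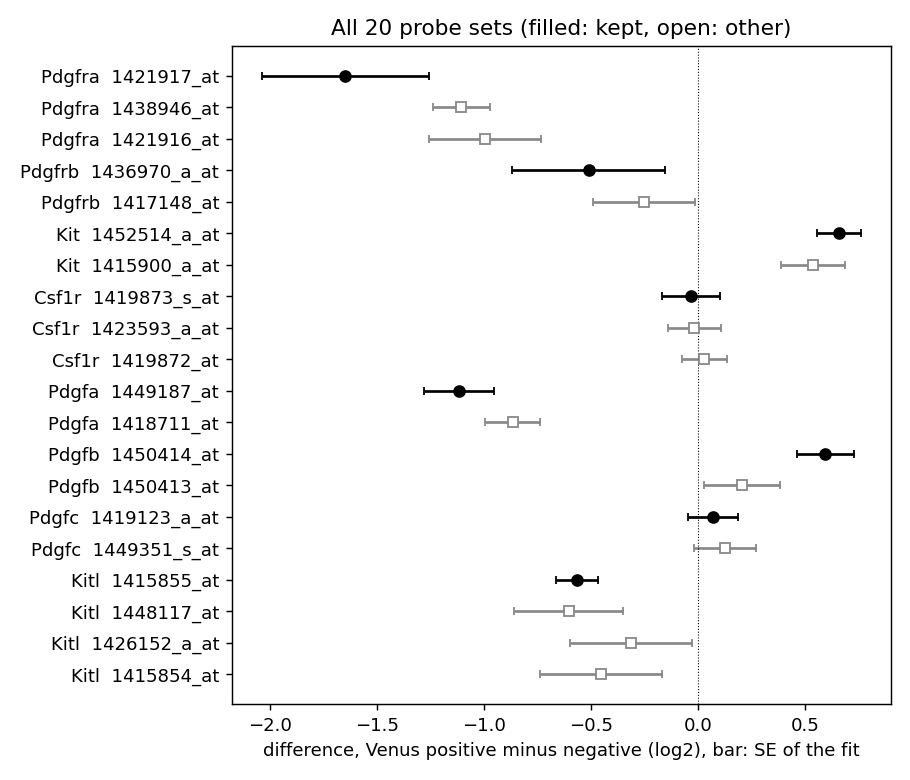
Difference between Etv2-Venus positive and negative cells on the log2 scale for all 20 probe sets of the 8 genes, with bars for the SE of the limma fit over all probe sets, filled symbols for kept and open symbols for other probe sets. The 3 probe sets of Pdgfra lie between -1.65 and -0.99, both of Pdgfa at -1.11 and -0.86, and both of Kit at 0.66 and 0.54.

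The plot of all genes sets these values against the rest of the arrays. Over the 18193 genes the median difference was 0.01, and 5% of genes lay below -0.34 and 5% above 0.39. Pdgfra, Pdgfa, Kitl and Pdgfrb lay below the first value and Kit and Pdgfb above the second, but for Pdgfrb the within-population distance was larger than the difference. At an adjusted p under 0.10 there were 2 members, Kit and Pdgfa, where the share over all genes was 1.29%. With limma's trend and robust options, which called 0.616% of genes at an adjusted p under 0.05, 0 members were called. The same held when genes with a mean under 6 were left out, where 0.776% were called.

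**Figure D3:**
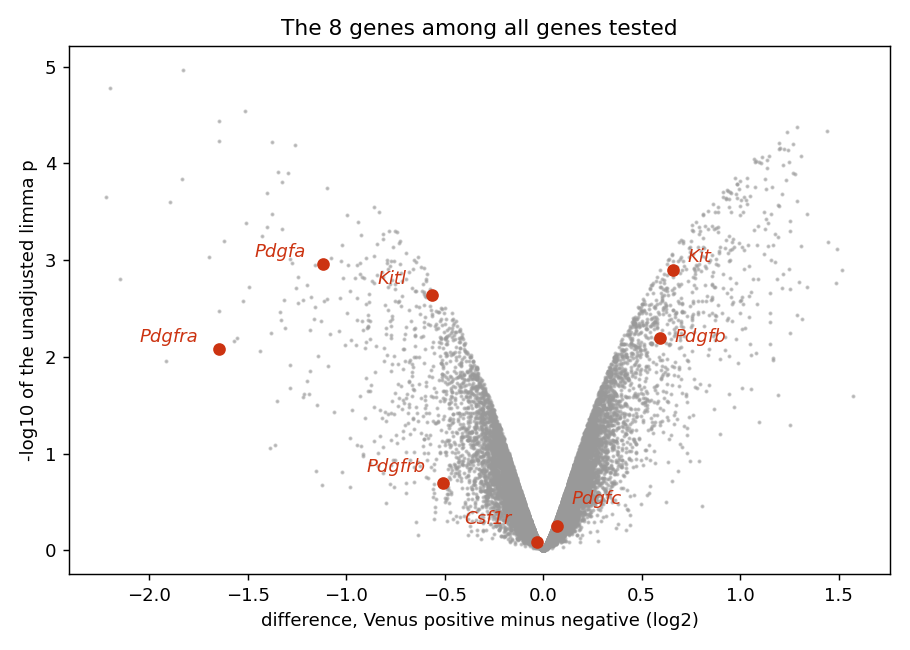
Difference between the populations on the log2 scale against the -log10 of the unadjusted limma p for 18193 genes in grey and the 8 named genes in red. Pdgfa, Kit and Kitl, at differences of -1.11, 0.66 and -0.56, lie above most genes but not at the top. Their ranks by moderated t are 207, 231 and 340. Csf1r and Pdgfc lie near the origin.

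The sequences before the start sites of Pdgfra, Pdgfa, Kitl and Kit are shown because these genes carry the contrast of both ligand and receptor pairs, and because Etv2, the gene of the sort, encodes an ETS factor. ETS factors bind DNA around a GGAA core. Of the 8 genes, 5 had an entry in the RefSeq promoter table of GRCm38.p6, and the 250 bases before the most upstream start were read from it, 5′ to 3′ on the strand of the gene. Pdgfb, Pdgfrb and Csf1r were not read. Capitals mark GGAA or its reverse complement TTCC. The windows are chr5:75152001-75152250 on the + strand, chr5:138994945-138995194 on the - strand, chr10:100015571-100015820 on the + strand and chr5:75574737-75574986 on the + strand.
Pdgfra: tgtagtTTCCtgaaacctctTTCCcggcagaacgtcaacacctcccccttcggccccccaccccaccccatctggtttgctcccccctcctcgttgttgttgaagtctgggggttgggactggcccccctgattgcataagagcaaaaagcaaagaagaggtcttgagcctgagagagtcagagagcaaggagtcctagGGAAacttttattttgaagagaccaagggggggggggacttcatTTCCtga
Pdgfa: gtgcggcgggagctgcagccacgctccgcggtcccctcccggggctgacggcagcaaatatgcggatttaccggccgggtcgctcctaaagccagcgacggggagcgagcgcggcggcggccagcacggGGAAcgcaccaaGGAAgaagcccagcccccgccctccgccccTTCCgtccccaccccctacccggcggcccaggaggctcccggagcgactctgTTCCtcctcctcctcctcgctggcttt
Kitl: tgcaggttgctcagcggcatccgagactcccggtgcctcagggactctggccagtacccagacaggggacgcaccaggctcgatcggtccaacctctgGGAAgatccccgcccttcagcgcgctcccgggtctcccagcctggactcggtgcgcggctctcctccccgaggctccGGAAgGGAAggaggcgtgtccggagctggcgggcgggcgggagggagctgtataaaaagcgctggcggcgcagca
Kit: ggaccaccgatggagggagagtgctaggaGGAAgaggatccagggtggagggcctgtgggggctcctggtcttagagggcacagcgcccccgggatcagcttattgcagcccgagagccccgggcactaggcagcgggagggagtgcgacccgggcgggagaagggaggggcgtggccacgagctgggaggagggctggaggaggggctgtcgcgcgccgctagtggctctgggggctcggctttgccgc

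The windows of Pdgfra, Pdgfa and Pdgfc hold 4 GGAA cores each on both strands together, that of Kitl 3 and that of Kit 1. A GGAA core was found in 93.4% of 27025 windows of the same length, with a median of 3, so its presence sets none of these genes apart. The longer letters CCGGAAG, which contain the core, were found in the Kitl window alone among the 5, in 1 copy, and in 7.07% of all windows. Kitl was also the only one of the 5 with TATAAA, found in 13% of all windows. GGGCGG had 3 matches in Kitl, 2 in Pdgfa and 1 in Kit, and 33% of all windows hold it. AGATAA, the letters of GATA factors, had no match in the 5 windows (10.2% of all). CANNTG, the E-box, had 1 match in the window of Pdgfra and none in the others (66.1% of all). The windows of Pdgfa, Kit and Kitl had a GC content of 72.4%, 70.8% and 69.2%, and those of Pdgfra and Pdgfc had 54.4% and 50.8%, against a median of 52% over all windows. These are matches of letters only.

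Pdgfra, Kit and Kdr lie next to each other on mouse chromosome 5, with no other named protein-coding gene between them in the RefSeq gene order. Their differences were -1.65 (SE 0.38), 0.66 (SE 0.10) and 0.13 (SE 0.12), so that neighbouring receptors of 1 cluster ranged from lower to higher in the positive cells. Kdr was used to select both populations. Gsx2, on the other side of Pdgfra, was dim at 3.07 ± 0.07 and 2.93 ± 0.05 (SD, n = 2). Pdgfrb and Csf1r are neighbours on chromosome 18, flanked by Cdx1, at 4.28 ± 0.08 and 4.07 ± 0.14, and Hmgxb3, at 9.01 ± 0.16 and 8.95 ± 0.09, and neither flanking gene passed (limma adjusted p = 0.581 and 0.922).

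Pdgfra and Pdgfrb are also made by stromal and mesenchymal cells, and OP9 cells share the culture, so markers of such cells were read beside them. Of 19 measured stromal markers 0 passed in limma over all genes, 3 had arrays apart in the lower and 0 in the higher direction, where the shares over all genes were 17% and 22.4%, and the median difference was -0.09. The mean level of the list was 6.32 and 5.64 on the negative and 6.24 and 5.45 on the positive arrays, so it moved with the array number and by less with the population. Of the 19 markers 7 were below the median on every array. Col1a2, a collagen chain abundant in stroma, measured 10.02 and 8.41 on the negative and 9.79 and 7.96 on the positive arrays. Pdgfra and Pdgfrb were also higher on the arrays numbered 1, by a mean of 0.79 and 0.72 over both populations. That mean was 0.28 for Pdgfa, 0.08 for Kitl, 0.01 for Kit and -0.16 for Pdgfb. Over all genes the median of array 1 minus array 2 was 0.05 without and 0.07 with Venus. Such a shift was not particular to stromal markers. Otx2, which is not on the list, measured 9.80 and 9.00 on the negative and 8.14 and 7.52 on the positive arrays. Between the arrays numbered 1 the difference of Pdgfra was -1.56 and between those numbered 2 it was -1.74, and for Pdgfrb these values were -0.47 and -0.55. Cxcl12, a chemokine of stroma, had arrays apart at 8.46 and 8.57 against 7.79 and 7.98, and Mmp2 overlapped, with a difference of -0.03 (SE 0.12). The mean of array 1 minus array 2 was -0.15 for Cxcl12 and 0.08 for Mmp2, against 1.72 for Col1a2. The part of stromal cells in the level of these receptors was not tested.

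**Figure D4:**
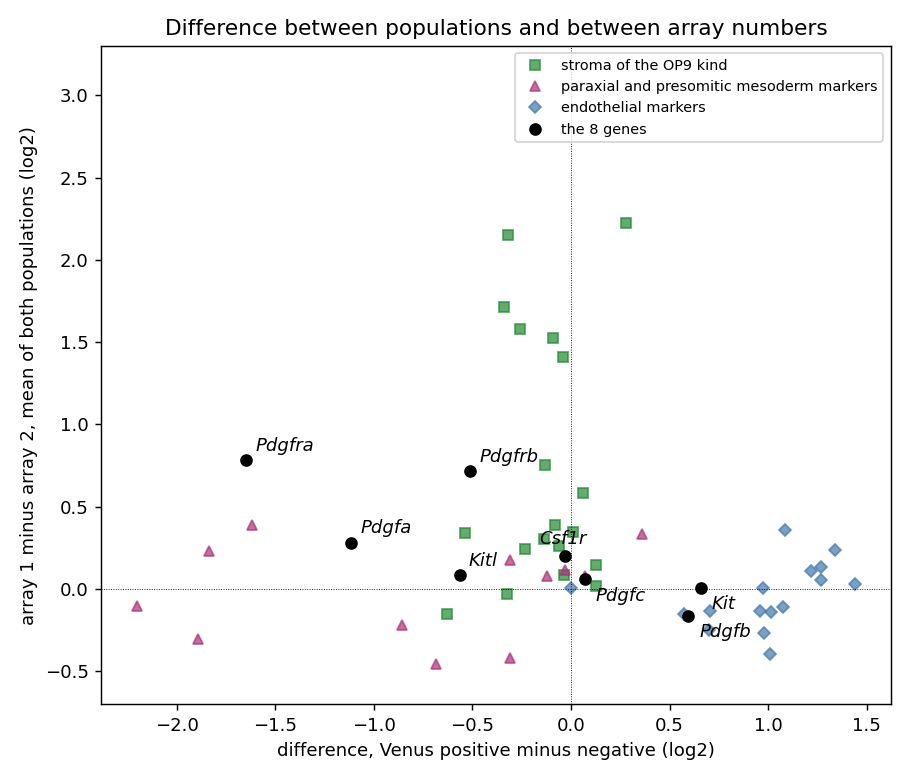
Difference between populations (horizontal, log2) and difference between arrays numbered 1 and 2 averaged over both populations (vertical, log2) for the 8 genes and for markers of OP9-like stroma, of paraxial mesoderm and of endothelium. Pdgfra and Pdgfrb stand 0.79 and 0.72 above 0 on the vertical axis, Kit at 0.01 and Kitl at 0.08.

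Markers of the cell types that these receptors are known from were read in the same way, against the shares over all genes of 22.4% with arrays apart in the higher and 17% in the lower direction. A difference above 0 was found for 9618 of all 18193 genes. Paraxial and presomitic mesoderm markers had a median difference of -0.50, with 8 of 12 apart in the lower and 1 in the higher direction. Among them the Notch ligands Dll1 and Dll3 were at -1.89 (SE 0.19) and -1.83 (SE 0.16), and Foxc2, a forkhead factor of mesoderm, at 0.36 (SE 0.22). Cardiac mesoderm markers had a median of -0.56, with 6 of 10 apart in the lower and 0 in the higher direction, and 4 above 0. For smooth muscle and pericyte markers the median was -0.27, with 4 of 12 apart in the lower and 2 in the higher direction. Rgs5, known from pericytes, was at -0.94 (SE 0.13), the smooth muscle actin Acta2 at -0.41 (SE 0.19) and the receptor Notch3, with overlapping arrays, at -0.42 (SE 0.27). Mcam, an adhesion molecule of pericytes and endothelium, was at 0.74 (SE 0.10), and 5 of the 12 were above 0. Endothelial markers had a median of 1.01, with 15 of 16 apart in the higher direction. The VEGF receptors Flt4 and Flt1 were at 1.27 (SE 0.11) and 0.70 (SE 0.14). Blood progenitor markers had a median of 0.12, with 4 of 9 apart in the higher and 2 in the lower direction, and 6 above 0. The integrin Itga2b was at 0.70 (SE 0.11) and Cd34 at 0.86 (SE 0.13). Runx1, the brightest of the list, had overlapping arrays and was at 0.14 (SE 0.31). Mast cells also carry Kit, and of 9 measured mast cell markers 8 were below the median on every array, 2 were apart in the higher and 1 in the lower direction. Their mean level was 4.15 and 4.01 on the negative and 4.20 and 4.09 on the positive arrays. The part of these cell types in the differences of Pdgfra, Kit and Pdgfb was not tested.

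The other ligands and receptors of the 2 systems were near 0. Pdgfd and the receptor-like gene Pdgfrl differed by -0.02 (SE 0.18) and -0.07 (SE 0.36). Flt3, a further receptor of the class, was at -0.16 (SE 0.09), Csf1, a ligand of Csf1r, at -0.08 (SE 0.15), and Il34, its other ligand, at 0.18 (SE 0.09). Pdgfd, Flt3 and Il34 were below the array median on every array. Pdgfd was the dimmest, at 2.89 and 3.37 against 3.12 and 3.10, so its difference says little. Flt3 had arrays apart in the lower direction (17% of all genes) and Il34 in the higher direction (22.4%).

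Proteins that process PDGF or serve as its co-receptors went both ways, with 2 of 11 at an unadjusted p under 0.05 in the higher and 1 in the lower direction, against the same 7.07% and 4.64% of all genes. Pcsk5, a proprotein convertase, measured 10.14 and 9.79 without and 9.09 and 8.88 with Venus, a difference of -0.98 (SE 0.16). Furin, the convertase known to cleave PDGF-A and PDGF-B precursors, was at 0.18 (SE 0.09). Nrp2, a neuropilin, and Itgb3, an integrin subunit that can associate with PDGF receptors, were at 0.58 (SE 0.12) and 0.55 (SE 0.09). The neuropilin Nrp1 was brighter than Nrp2 and pointed the other way, at -0.31 (SE 0.18) with overlapping arrays. The list median was 0.07.

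Genes of the signalling cascade below Kit and the PDGF receptors had a median difference of 0.05, with 8 of 33 measured genes at an unadjusted p under 0.05 in the higher and 0 in the lower direction. Over all genes these shares were 7.07% and 4.64%, and 0 of the 33 passed when adjusted over all genes. Gab1 and Gab2, docking proteins that link receptors to phosphoinositide 3-kinase and Shp2, stood furthest in the higher direction. Gab1 measured 9.62 and 9.78 without and 10.72 and 10.70 with Venus, a difference of 1.01 (SE 0.10; limma adjusted p = 0.0670). Gab2 measured 7.39 and 7.40 against 8.48 and 8.23, a difference of 0.97 (SE 0.12; limma adjusted p = 0.0874). The Src family kinase Yes1 was at 0.60 (SE 0.09), and Stat5b, a transcription factor activated below Kit, at 0.51 (SE 0.09). These genes act below many receptors and are not particular to Kit.

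Negative regulators of these receptors had a median of 0.05, with 3 of 19 at an unadjusted p under 0.05 in the higher and 1 in the lower direction, where the shares over all genes were 7.07% and 4.64%. Sh2b3 (Lnk), an adaptor that restrains Kit signalling in blood progenitors, measured 8.13 and 8.20 against 8.59 and 8.65, a difference of 0.46 (SE 0.09). The related Sh2b2 was at 0.31 (SE 0.09), Errfi1, a feedback inhibitor of receptor kinases, at 0.37 (SE 0.12), and Spred1, an inhibitor of Ras signalling, at -0.30 (SE 0.10).

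Transcription factors linked to Kit in blood and mast cells had a median of 0.41. All 10 measured genes had a difference above 0, the smallest at 0.05, where 9618 of all 18193 genes did. Of the 10, 8 had arrays apart in the higher direction (22.4% of all genes), and 0 passed when adjusted over all genes. Tal1 and Lmo2, partners in a complex of blood and endothelial precursors, were at 1.02 (SE 0.13) and 0.98 (SE 0.09). Lyl1, a relative of Tal1, was at 0.89 (SE 0.10) and Gata2 at 0.76 (SE 0.13). For comparison, the median over all genes was 0.01.

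**Figure D5:**
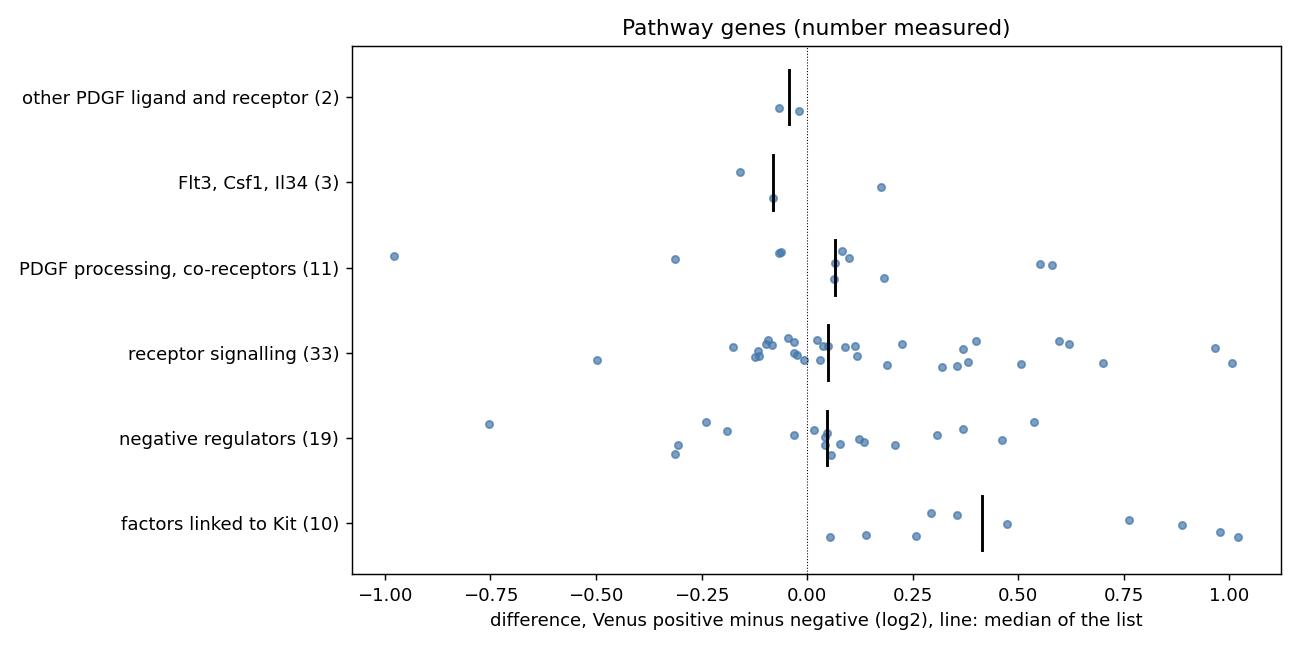
Difference between the populations on the log2 scale for the measured genes of 6 pathway lists, with 1 point per gene, the number measured in brackets and a line at the list median. The factors linked to Kit have a median of 0.41, and the signalling genes have a median of 0.05 with Gab1 and Gab2 at 1.01 and 0.97.

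The genes whose values over the 4 arrays, each centred on its own mean, were closest to those of a receptor were taken from 10178 genes with a mean of at least 6. For Kit these were Nid1, a basement membrane protein, Tgfbr2, a TGF-beta receptor, and Traip, a ubiquitin ligase, with root mean square differences of 0.0082, 0.025 and 0.030 log2 units. Nid1 measured 9.88 and 9.77 on the negative and 10.45 and 10.54 on the positive arrays. For Pdgfra they were Otx2, a homeobox factor, L1cam, an adhesion molecule, and Usp18, a protease of the interferon response, at 0.10, 0.11 and 0.17. Otx2 measured 9.80 and 9.00 against 8.14 and 7.52, with the same higher value on the arrays numbered 1. For Pdgfrb they were Otx1, Car4 and Armh4, at 0.022, 0.041 and 0.055. Such likeness over 4 arrays is a description and has no test.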

How the data were processed

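The authors deposited log2 expression per probe set. They used RMA and R version 2.8.0, per the submitters' processing notes. Labelling was biotin-based with the Affymetrix 3'IVT chemistry, per the labels' protocols. That the base is 2 was judged from the range, 2.16 to 14.93. The values are array signals summarised per probe set, so no aligner or genome build applies to them. RMA removes any shift shared by all genes and compresses differences near background. Detection calls were not used here, and the number of arrays limits the precision.

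Groups and array numbers came from the sample titles, and symbols from the platform annotation, in which 34958 probe sets had 1 symbol. The probe set with the highest mean represented each of 18193 genes. The test was that of limma 3.58.1 (lmFit, eBayes; R 4.3.3), two-sided, with population as the sole factor, 2 residual and 2.68 prior degrees of freedom, and Benjamini-Hochberg adjustment over all genes at 0.05. Probe sets that were not kept were read from a fit over 45037 probe sets that are not controls. Lists were described by counts and medians. Alternatives were 3 other uses of probe sets, a minimum mean of 6, limma's trend and robust options, 2 normalizations, a replicate block, and each array left out in turn.

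The named genes were the 8 members, Kdr and Etv2, the nearest named protein-coding neighbours of each receptor, the 3 genes most like Pdgfra, Pdgfrb and Kit, up to 4 genes with the smallest p per pathway list and the 3 with the highest mean per marker list. Adgre1, Itgam, Cx3cr1, Mcam and Nrp1 were named after their values were seen, and not all genes of the rule are printed. The members and lists were chosen with earlier results of these data known. Tested on simulated data for this comparison on 18193 genes, the limma step called 4% of genes changed by 0.5 and 92% at 1. It called 98% at 1.5 and 100% at 2, with 14 false calls. The simulated noise was normal and used the gene variances after limma's moderation, so these rates need not hold for the real arrays. There, 109 genes were at least 2-fold higher and 77 at least 2-fold lower, and 0 were called. Figures were drawn with matplotlib 3.10.9.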

Additional observations from a re-analysis of the deposited data

How the results depend on the processing

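Over 13 settings, of which Csf1r had 12 as its mean is below 6, the differences of Pdgfra, Pdgfrb, Kit, Pdgfa, Pdgfb and Kitl kept their sign, and no member passed an adjusted p of 0.05 in limma in any of them. The smallest adjusted p was 0.0561 for Kit and 0.0593 for Pdgfa, both with limma's trend and robust options. Csf1r turned to 0.013 after quantile normalization run again and to 0.0079 with arrays centred on their medians, and Pdgfc and Csf1r changed sign when arrays were left out (Pdgfc was -0.032 without the negative array numbered 2). Leaving out each array in turn gave -2.08 to -1.21 for Pdgfra, -0.89 to -0.13 for Pdgfrb, 0.61 to 0.71 for Kit, -0.16 to 0.10 for Csf1r, -1.26 to -0.97 for Pdgfa, 0.45 to 0.74 for Pdgfb, -0.03 to 0.17 for Pdgfc and -0.61 to -0.52 for Kitl. Those fits assume that the single array of a population varies like the other population. The count of genes called over the arrays was 0 in the main setting, 112 with trend and robust options and 79 with genes of a mean under 6 left out, where fewer genes were tested, and the cause of the first was not tested. At an unadjusted p under 0.05 the count of members in the lower direction was 3. It was 2 with the mean over probe sets and 4 with the array number as a replicate block, where Pdgfrb had an unadjusted limma p of 0.00362 against 0.202 without the block. Same-numbered arrays deviated together (Pearson r = 0.54 across genes, which are not independent replicates), but the labels do not say that a number marks a shared culture. With the array number as a replicate block the difference of Pdgfra stayed -1.65 (limma adjusted p = 0.0856) and that of Pdgfrb -0.51 (0.105), and the block changed no call at an adjusted p of 0.05.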
